A study of Mus musculus with 6 samples.

Results

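The oxytocin signalling pathway downstream of the receptor was described as the set of genes that the deposited annotation assigns to the KEGG map ko04921. The rule took the rows of the expression table with that map in their pathway column and left out Oxtr, Oxt, Cd38, Egfr, Fos and Jun by name. It found 152 rows, and 146 members remained of 21959 rows in the table. RNA had been sequenced from mouse white adipose tissue, which the series text places in the gonadal depot, in 3 libraries of the genotype WT and 3 of the genotype ++Oxtr. WT libraries carry the numbers 10, 11 and 12 and ++Oxtr libraries the numbers 7, 8 and 9. The labels give no age, sex, strain, construct or promoter, and nothing in them says that the libraries come from separate animals, so p-values measure the spread between these libraries, which may be technical. The design asks which genes differ between ++Oxtr and WT fat.

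The oxytocin receptor is a G protein-coupled receptor. Through Gq it activates phospholipase C, which makes inositol trisphosphate and diacylglycerol, and these release stored calcium and activate protein kinase C. Calcium bound to calmodulin drives myosin light chain kinase, the calmodulin-dependent kinases and calcineurin. The receptor also couples to Gi, acts through Rock kinases on myosin phosphatase, and reaches the MAP kinases. The pathway is best known for contraction of uterine and mammary smooth muscle, and oxytocin also acts on fat cells.

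Total counts ran from 14314517 to 19186696 per library. Libraries were compared as CPM, counts scaled to a common library size with edgeR's TMM factors, and levels of different genes as the deposited FPKM, which is per gene length. A count of 0 allows up to 3 counts, or 0.159 to 0.208 CPM, for counting error only. Adipocyte markers were abundant in every library, with a summed level of 17820 to 25374 CPM over 7 genes. The receptor gene Oxtr was at 22, 61.4 and 45.2 CPM in WT and 90.7, 89.7 and 81.8 CPM in ++Oxtr. Its groups did not overlap, and its log2 fold change of 1.03 (SE 0.34) did not pass edgeR (adjusted p = 0.469). ++Oxtr replicate 8 stood apart in 8 multiciliated epithelium genes, with a sum of 84.8 CPM against 7.37 to 25 CPM in the other libraries. It is named beside some of the members in which it stood apart, but not beside all.

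The fat transcribed most of the pathway. Of the 146 members, 113 passed the filter on low counts and 92 of those had a mean of at least 1 FPKM. Of the 33 members not tested, 11 had 0 reads in all 6 libraries and the other 22 had at most 29 reads in a library. The untested members included 6 of the 8 inward rectifier potassium channels, 9 of the 16 auxiliary subunits of voltage-gated calcium channels and 4 of the 7 genes of cytosolic phospholipase A2 and cyclooxygenase 2. Nppa, the gene of atrial natriuretic peptide, and Cacna1s, the pore of the skeletal muscle calcium channel, had 0 reads throughout.

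No member passed edgeR's quasi-likelihood test at an adjusted p of 0.05, and of all 13566 genes tested 0.0% did. At an unadjusted p under 0.05, 3 members were on the higher side in ++Oxtr and 7 on the lower side. These 10 were 8.85% of the tested members. Of all tested genes 8.91% met that threshold, 4.44% on the higher and 4.47% on the lower side. DESeq2 called 1 member, Mylk, at an adjusted p of 0.05, on the lower side. It called 1.4% of all genes, 0.693% higher and 0.708% lower. By the same threshold without adjustment, DESeq2 had 5 members higher and 6 lower (9.73%), beside 9.55% of all genes, 5.04% higher and 4.51% lower. The limma-voom test called 0 members and 0.0% of all genes. The groups did not overlap in 20 members (4 higher and 16 lower in ++Oxtr), which is 17.7% of those tested, beside 15.1% of all genes, 7.45% higher and 7.61% lower. Counted in either direction, these shares are near the background, while the split of the 20 was uneven.

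The members as a set lay slightly to the lower side. Of the 113, 71 had a log2 fold change below 0 (62.8%), beside 49.2% of all genes, of which 50.8% lay above 0. The members' median was -0.06, beside a median of 0.00398 over all genes. The size of the differences was like that of other genes, with a median of 0.137 without regard to sign, beside 0.14 over all genes. With upper quartile factors, which moved the median of all genes to 0.0322, 57.5% of the members and 42.8% of all genes were on the lower side. Of the 38 tested members with a mean of at least 10 FPKM, 34 differed by at most 0.3 on the log2 scale.

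**Figure D1:**
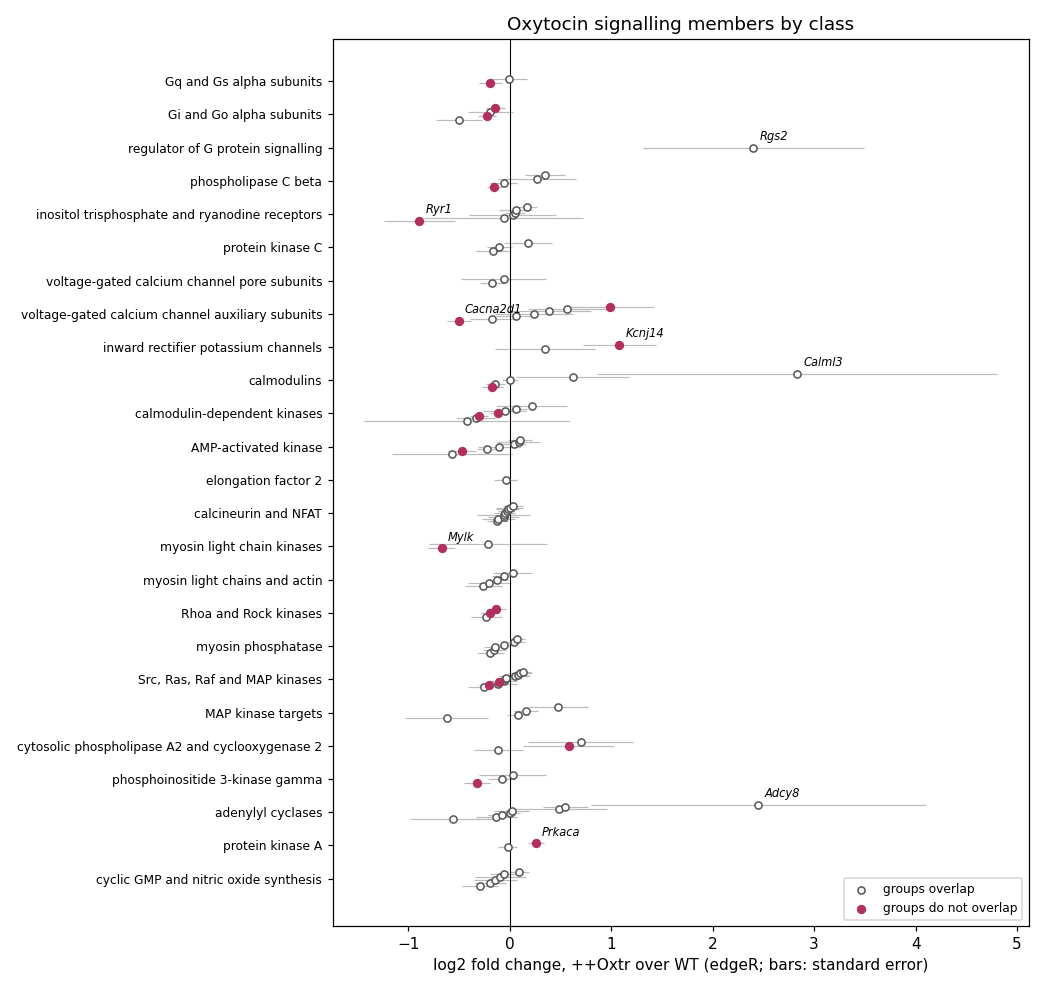
Log2 fold change of the 113 tested members (horizontal axis, ++Oxtr over WT, bars are the standard error), with 1 row per class of the pathway. Filled points are the 20 members whose groups do not overlap. Most points lie within 0.3 of 0, Mylk is the lowest point of its class at -0.67, and Rgs2, Calml3 and Adcy8 lie above 2 with wide errors.

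Promoter sequences are shown for Mylk, Cacna2d1 and Prkaca, the 3 members that differed with non-overlapping groups and that DESeq2 called with all libraries or with a single library left out. Sequences are RefSeq's on GRCm38.p6 and give the bases before the annotated start of the transcript, 5′ to 3′ on the plus strand. Capitals mark GC boxes, the letters GGGCGG on either strand.

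Mylk, chr16:34784700-34784920: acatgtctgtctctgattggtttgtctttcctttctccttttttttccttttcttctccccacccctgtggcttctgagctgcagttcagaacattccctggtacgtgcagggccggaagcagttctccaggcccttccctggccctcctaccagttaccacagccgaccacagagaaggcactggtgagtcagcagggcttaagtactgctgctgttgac

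Cacna2d1, chr5:15934441-15934690: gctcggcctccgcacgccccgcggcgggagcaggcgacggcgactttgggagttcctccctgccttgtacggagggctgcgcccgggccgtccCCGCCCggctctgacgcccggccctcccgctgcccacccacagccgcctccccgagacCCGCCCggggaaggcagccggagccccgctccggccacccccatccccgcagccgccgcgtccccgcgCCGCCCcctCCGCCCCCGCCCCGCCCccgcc

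Prkaca, chr8:83972728-83972977: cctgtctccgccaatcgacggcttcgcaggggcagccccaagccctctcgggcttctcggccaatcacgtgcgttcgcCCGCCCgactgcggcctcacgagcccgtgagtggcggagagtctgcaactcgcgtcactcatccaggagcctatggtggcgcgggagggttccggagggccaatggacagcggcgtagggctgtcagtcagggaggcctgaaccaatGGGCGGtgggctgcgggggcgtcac

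The Mylk window precedes a RefSeq start that lies 39740 bases inside the GENCODE M21 gene, and its last 29 bases, which overlap an exon, are left out. It held no GC box and was 53.4% G and C. The Cacna2d1 window was 82.4% G and C with 6 GC boxes, some overlapping each other, and the printed Prkaca window was 68.8% with 2. Another Prkaca window, before a different RefSeq start, held no GC box and is not printed. A GC box was found in the 250 bases before a start in 79.5% of the 88 tested members with a promoter in the table and in 62.6% of the 10707 tested genes with one. The cyclic AMP response element TGACGTCA, which reads the same on both strands, was found in 3 of the 88 (3.4%, beside 2.9%), namely Myl6, Ppp1r12c and Rcan1. None of the 3 printed windows held it, nor the TATA box TATAAA, found in 9.1% of the members and 8.2% of the genes.

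The CArG box is the site at which serum response factor binds genes of the actin cytoskeleton. It was found in 3 of the 88 members (3.4%, beside 1.4% of tested genes), and all 3 were genes of actin or myosin light chains. The 3 boxes are printed below, and whether the box has a part in any difference between the groups was not tested. Capitals mark the box, with 10 bases on each side, on the gene's own strand.

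Actg1, chr11:120348566-120348595, minus strand: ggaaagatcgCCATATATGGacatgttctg

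Myl6, chr10:128493040-128493069, minus strand: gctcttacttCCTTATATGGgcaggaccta

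Myl9, chr2:156775293-156775322, plus strand: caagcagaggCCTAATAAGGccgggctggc

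The box began 90 bases before the RefSeq start in Actg1, 50 in Myl6 and 161 in Myl9. The printed Myl6 site begins 1076 bases inside the longer GENCODE M21 gene, and all 30 of its bases are exonic there, while the Actg1 and Myl9 sites lie upstream of their GENCODE genes. A match is a description of these letters and not of binding.

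The members that encode alpha subunits of the G proteins Gq, Gs, Gi and Go were all on the lower side in ++Oxtr, and none passed the test. With upper quartile factors the Gs subunit turned to the higher side. Gna11, a Gq-type alpha subunit that is not a member, was on the higher side (log2 fold change 0.11, SE 0.08). Gnaq, a Gq subunit that carries the signal to phospholipase C, was at 127.5, 135.7 and 122 CPM in WT and 121.4, 120.7 and 95.4 CPM in ++Oxtr. The groups did not overlap but lay close, with the WT replicate 12 and ++Oxtr replicate 7 values next to each other. Its log2 fold change was -0.19 (SE 0.11, edgeR adjusted p = 0.66).

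The inhibitory subunits were far more abundant per length than Gnaq. Gnai1 and Gnai2 had means of 91.8 and 91.3 FPKM, Gnai3 of 39.1 FPKM and Gnaq of 19.5 FPKM, while Gnao1, the neuronal Go subunit, was at 1.14 FPKM. Gnai3 was at 144.9, 125.5 and 141.1 CPM in WT and 119.7, 120.9 and 112.5 CPM in ++Oxtr, so the groups did not overlap. It differed by -0.22 (SE 0.09) at an unadjusted p of 0.0366 (edgeR adjusted p = 0.515). Gnai2 differed by -0.14 without overlap, and Gnai1 by -0.19 with overlap. The Gs subunit Gnas had 179 to 283 reads per library and a log2 fold change of -0.01 (SE 0.18). Gnas overlaps Nespas and Gm20721 on the other strand and how shared reads were counted is not known, so its level of 1.25 FPKM is uncertain.

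Rgs2, which shortens Gq signals by speeding GTP hydrolysis, had the widest spread of these genes. It was at 58.3, 16.8 and 24.8 CPM in WT and 49.7, 31.8 and 447.9 CPM in ++Oxtr replicates 7, 8 and 9. A single library, ++Oxtr replicate 9, was 7.68 times as high as the next and the other 5 overlapped. Its log2 fold change was 2.40 (SE 1.09, edgeR adjusted p = 0.584), and 0.29 (SE 0.58) without that library. The same library had the highest summed level of 6 T and natural killer cell genes, at 26.1 CPM against 6.65 to 12.7 CPM, and of 5 neutrophil genes, at 48.7 CPM against 9.92 to 35.2 CPM. It also had the highest level of Fos, an immediate early gene, at 60.4 CPM against 8.37 to 46.4 CPM. The part of any of these in the Rgs2 value was not tested.

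The 4 phospholipase C beta genes lay on both sides, 2 higher and 2 lower. Plcb4 and Plcb3 had a mean level of 11 FPKM each and Plcb1 of 5.51 FPKM, while Plcb2, typical of blood cells, was at 0.667 FPKM. Plcb3 was at 77.1, 82.2 and 82.7 CPM in WT and 72.2, 73.7 and 72 CPM in ++Oxtr. These ranges did not overlap, at a log2 fold change of -0.15 (SE 0.07, edgeR adjusted p = 0.6). Plcb4 differed by -0.06 and Plcb1 by 0.35 (SE 0.20), both with overlapping groups.

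The inositol trisphosphate receptors, which release calcium from the endoplasmic reticulum, were all 3 on the higher side and close to 0. Itpr1 was at 105.9, 93.4 and 95.8 CPM in WT and 110.6, 101.2 and 120.4 CPM in ++Oxtr, with a log2 fold change of 0.17 (SE 0.10, edgeR adjusted p = 0.645). Only WT replicate 10 and ++Oxtr replicate 8 overlapped. Itpr2 and Itpr3 differed by 0.05 and 0.06. At 5.70, 3.85 and 3.28 FPKM the 3 receptors were far above the ryanodine receptors, of which Ryr2 was at 0.116 FPKM.

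Ryr1, the calcium release channel of skeletal muscle, was barely expressed. Reads numbered 39, 28 and 29 in the WT libraries, all above the 17, 18 and 18 of the ++Oxtr libraries. Its log2 fold change was -0.89 (SE 0.35) at an unadjusted p of 0.0344 (edgeR adjusted p = 0.509). The summed level of 9 skeletal muscle markers was 21.9, 23.6 and 10 CPM in WT and 10.2, 8.30 and 3.31 CPM in ++Oxtr. Acta1 alone made up most of that sum, at 20, 20.4 and 7.14 CPM in WT and 7.76, 5.67 and 1.21 CPM in ++Oxtr. Every other listed marker was at 2.01 CPM or less in each library, and Myh4 and Tnnc2 had 0 reads in all libraries. Of 3 tested markers, 1 was on the higher side and 2 on the lower. Whether muscle RNA had a part in the Ryr1 value was not tested. Antisense genes overlap Ryr1, and without a known strand their reads cannot be told apart.

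Protein kinase C, which diacylglycerol activates, lay close to 0 in the genes described. Prkca, the most abundant at 3.38 FPKM, differed by -0.10 (SE 0.12) and Prkcb by -0.16, both with overlapping groups.

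The pores of voltage-gated calcium channels were low, with Cacna1c, the L-type pore of smooth and cardiac muscle, at 0.92 FPKM and Cacna1d at 0.306 FPKM. Cacna1d was highest in ++Oxtr replicate 8, at 7.77 CPM against 2.44 to 5.11 CPM in the other libraries. Cacna1c differed by -0.17 (SE 0.12). Cacna2d1, the auxiliary subunit that raises the number of channels at the cell surface, had the second smallest p of all members. It was at 34.5, 31 and 31.8 CPM in WT and 26, 22.5 and 20 CPM in ++Oxtr. Every ++Oxtr library lay below every WT library. The log2 fold change was -0.50 (SE 0.12), or 1.42-fold lower, with an unadjusted edgeR p of 0.00389 (edgeR adjusted p = 0.362, DESeq2 adjusted p = 0.0799). Without ++Oxtr replicate 7 DESeq2 gave -0.61 at an adjusted p of 0.023. An antisense gene, Gm43000, overlaps Cacna2d1.

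Cacng7 had the highest level of the class, 5.99 FPKM, and differed by -0.17 (SE 0.22), and Cacnb3 by 0.06. Cacnb4, a beta subunit, was at 1.53, 0.832 and 2.49 CPM in WT and 2.87, 3.36 and 3.44 CPM in ++Oxtr. The groups did not overlap, though the WT libraries lay far apart, and the log2 fold change of 0.99 (SE 0.43) had an edgeR adjusted p of 0.561.

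Of the inward rectifier potassium channels, some of which Gi proteins open or Gq signals close, only Kcnj14 and Kcnj2 were tested. Kcnj14 was at 1.42, 1.46 and 1.05 CPM in WT and 2.50, 2.24 and 3.58 CPM in ++Oxtr. All ++Oxtr libraries were above all WT libraries. Its log2 fold change of 1.08 (SE 0.36) had an unadjusted p of 0.0183 (edgeR adjusted p = 0.462), at a mean of 0.745 FPKM.

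**Figure D2:**
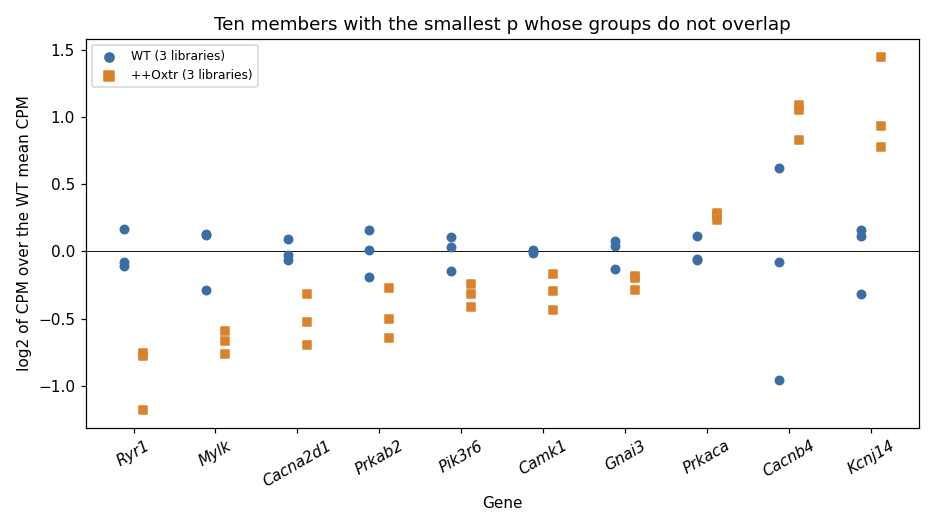
CPM of each library over the WT mean, on the log2 scale (vertical axis), for the 10 members with the smallest edgeR p among those whose groups do not overlap (horizontal axis). Points are single libraries. From Ryr1 to Gnai3 the ++Oxtr libraries lie below all WT libraries, and for Prkaca, Cacnb4 and Kcnj14 above them.

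Calm2 and Calm3, which encode the calcium sensor calmodulin, were abundant, at 110.4 and 77.7 FPKM. Calm3 differed by -0.14 with overlap. Calm2, at 160.9, 158.8 and 166.7 CPM in WT and 160.7, 170.4 and 154.3 CPM in ++Oxtr, had a log2 fold change of 0.00 (SE 0.08), and 0.03 with upper quartile factors. These genes have processed copies in the genome, so the split of reads is uncertain.

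Camk1, a kinase that calmodulin activates, was at 85.4, 84.5 and 86.1 CPM in WT and 75.8, 69.6 and 63 CPM in ++Oxtr. WT libraries differed from each other by less than 2 CPM, and all ++Oxtr libraries lay below them. Its log2 fold change of -0.30 (SE 0.09) had an unadjusted p of 0.0118 (edgeR adjusted p = 0.43). Camk1 overlaps Ogg1 on the other strand. Camk2d differed by -0.11 without overlap of the groups and Camk2g by 0.06. Camk2b, at 4.02 CPM or less in WT, was at 0.213, 1.19 and 7.36 CPM in ++Oxtr and went both ways. Named after its values were seen, it was the other member that DESeq2 called without ++Oxtr replicate 9, at a log2 fold change of -2.50 and an adjusted p of 0.0125. With all libraries its edgeR log2 fold change was -0.42 (SE 1.01).

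The AMP-activated kinase, an energy sensor that calmodulin-dependent kinase kinase can activate, lay close to 0 in its catalytic subunits. Prkaa1 differed by 0.04 (SE 0.12) and Prkaa2 by 0.09. Prkab2, a regulatory beta subunit, was at 37.6, 33.8 and 29.5 CPM in WT and 27.8, 23.7 and 21.5 CPM in ++Oxtr. Again no ++Oxtr library reached the WT range, at a log2 fold change of -0.47 (SE 0.14), an unadjusted p of 0.0109 (edgeR adjusted p = 0.418.) The other beta subunit, Prkab1, differed by 0.10. Eef2, a translation elongation factor, was the most abundant member at 531.3 FPKM and differed by -0.04 (SE 0.11).

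Calcineurin, the calmodulin-dependent phosphatase, and its NFAT targets differed little. All 9 tested genes had log2 fold changes between -0.12 and 0.03, and the groups overlapped in each. Ppp3r1, the regulatory subunit, was at 99.5, 112.2 and 101.1 CPM in WT and 104.3, 101.8 and 100.1 CPM in ++Oxtr. Rcan1, which is transcribed in response to calcineurin, had means of 30.4 CPM in both groups (log2 fold change 0.00, SE 0.13), and it and Nfatc3 turned to the higher side with upper quartile factors.

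**Figure D3:**
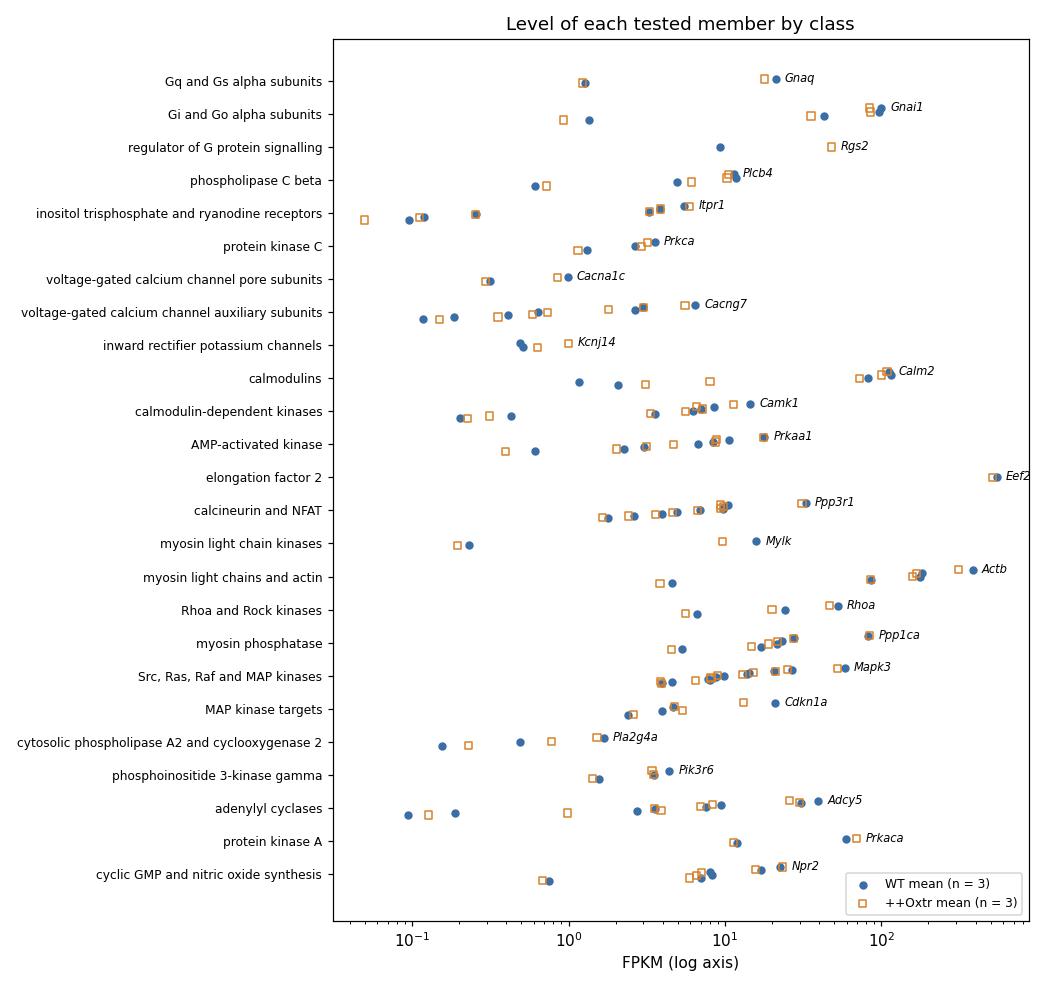
Mean FPKM of each tested member (horizontal log axis) by class, as circles for WT and squares for ++Oxtr, each over 3 libraries. The most abundant member of each class is named, from Eef2 at 531.3 FPKM to Kcnj14 at 0.745 FPKM over all libraries.

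Mylk, the smooth muscle and nonmuscle myosin light chain kinase, had the smallest p of all members. It was at 190.7, 192.4 and 143.9 CPM in WT and 103.7, 110.5 and 116.2 CPM in ++Oxtr, with means of 175.7 ± 27.5 and 110.1 ± 6.27 CPM (SD, n = 3). All 3 ++Oxtr libraries were below the lowest WT library. The log2 fold change was -0.67 (SE 0.13), or 1.6-fold lower. The unadjusted edgeR p was 0.000878 with an adjusted p of 0.287, and DESeq2 gave an adjusted p of 0.00132. An exact two-sided permutation test gave p = 0.1, and a design of 3 against 3 cannot go lower. Mylk (GRCm38 chromosome 16, 34745210 to 35002420, plus strand, protein coding) overlaps 3 antisense genes, 1700119H24Rik, E130310I04Rik and Gm21691, and reads cannot be assigned by strand.

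Leaving out each library in turn kept Mylk between -0.79 and -0.60 on the log2 scale, with edgeR adjusted p of 0.288 to 0.607. DESeq2 adjusted p then ran from 8.98e-09 without WT replicate 12 to 0.0283 without WT replicate 10. Mylk held 94.4% to 98.5% of the summed FPKM of the 4 myosin light chain kinase genes in each library, and the cardiac kinase Mylk3 was at 0.213 FPKM.

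Markers of smooth muscle and pericytes, cells rich in Mylk, overlapped between the groups. Their summed level over 10 genes was 1144, 1426 and 1267 CPM in WT and 1190, 1050 and 1484 CPM in ++Oxtr, with 3 of 9 tested genes on the higher side and 6 on the lower. Acta2 and Myh11, which define smooth muscle, lay at -0.05 (SE 0.23) and 0.04 (SE 0.22) on the log2 scale. The tested markers ranged from -0.10 (SE 0.18) for Rgs5 to 0.80 (SE 0.42) for Cnn1. Cnn1 was at 3.89, 8.05 and 7.28 CPM in WT and 7.28, 8.10 and 18 CPM in ++Oxtr. Tagln, another defining marker, was at most 0.877 CPM, while Acta2 was at 143.6 to 258.2 CPM. How Tagln reads were counted is not known, so its low level is uncertain. In bulk tissue, fewer cells of a type and less RNA per cell cannot be told apart. Endothelial markers summed to 1442 to 1526 CPM in WT and 1321 to 1553 CPM in ++Oxtr.

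Myosin light chains and actin were abundant and lay closer to 0. Myl6, the essential light chain of nonmuscle and smooth muscle myosin, was at 612.3, 568.6 and 531 CPM in WT and 604.9, 521.2 and 512.9 CPM in ++Oxtr (log2 fold change -0.06, SE 0.11). Myl9, the regulatory light chain that the kinase phosphorylates, was at 86.4, 104.9 and 102.6 CPM in WT and 89, 80.8 and 130.9 CPM in ++Oxtr (0.03, SE 0.19). The groups overlapped in both genes. Actg1 differed by -0.12 (SE 0.10) and Actb by -0.26 (SE 0.18), with ++Oxtr replicate 9 lowest in Actb at 658.5 CPM. Actb was second in level to Eef2, at 347.6 FPKM.

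Rhoa and the kinases Rock1 and Rock2, which restrain myosin phosphatase, were on the lower side and none passed the test. Rhoa, the small GTPase, was at 400.3, 388.3 and 375.8 CPM in WT and 372.6, 338.9 and 350.2 CPM in ++Oxtr. The kinase Rock1 was at 116.8, 119.1 and 116.7 CPM in WT and 113.6, 100.5 and 94.8 CPM in ++Oxtr. Neither gene's groups overlapped, and the log2 fold changes were -0.13 (SE 0.09) and -0.19 (SE 0.09), with edgeR adjusted p of 0.682 and 0.584. Rock2 differed by -0.23 with overlap. Of 6 genes of myosin phosphatase, which reverses the kinase, 2 were on the higher and 4 on the lower side. Ppp1ca, a catalytic subunit, differed by 0.07 (SE 0.08). The regulatory subunit genes Ppp1r12a, Ppp1r12b and Ppp1r12c differed by -0.15, -0.19 and -0.14, sizes like those of Rhoa and Rock1. The groups overlapped in each of these phosphatase genes.

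Of 11 genes from Src and Ras to the MAP kinases, 4 were on the higher and 7 on the lower side, between -0.25 and 0.13. Mapk3, which encodes ERK1, was at 128.3, 131.6 and 128.2 CPM in WT and 122.1, 116.4 and 123.1 CPM in ++Oxtr. The groups did not overlap, yet the log2 fold change was only -0.10 (SE 0.07, edgeR adjusted p = 0.709). Mapk7, which encodes ERK5, differed by -0.20 (SE 0.10) without overlap. Cdkn1a, a cell cycle inhibitor, was at 54.5, 90.7 and 74.1 CPM in WT and 46.9, 22.8 and 72.9 CPM in ++Oxtr, lowest in ++Oxtr replicate 8 (log2 fold change -0.62, SE 0.41). It was -0.29 without that library and -1.06 without ++Oxtr replicate 9. Ccnd1, cyclin D1, was highest in ++Oxtr replicate 8, at 37.4 CPM against 15.8 to 23.2 CPM in the others. The Ccnd1 log2 fold change was 0.48, 0.09 without that library and 0.73 without ++Oxtr replicate 7. Egfr, a receptor upstream of this arm that was left out of the members by name, was at 169 to 178.2 CPM in WT and 79.4 to 104 CPM in ++Oxtr (log2 fold change -0.94, SE 0.11, edgeR adjusted p = 0.121, DESeq2 adjusted p = 2.27e-09).

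Pla2g4a, which frees arachidonic acid, was at 1.60 FPKM and differed by -0.11 (SE 0.24). Ptgs2, which encodes cyclooxygenase 2, was at 2.48, 2.29 and 1.90 CPM in WT and 3.08, 1.45 and 6.34 CPM in ++Oxtr, highest in ++Oxtr replicate 9. Pik3r6, a regulatory subunit of the leukocyte phosphoinositide 3-kinase gamma, was at 14.2, 16.9 and 16.1 CPM in WT and 13.3, 12.6 and 11.8 CPM in ++Oxtr. No ++Oxtr library reached the WT range, at -0.32 (SE 0.13), an unadjusted p of 0.0411 (edgeR adjusted p = 0.529.) The catalytic gene Pik3cg differed by -0.08 and Pik3r5 by 0.03. Each of the 6 macrophage markers was lower in ++Oxtr by its fitted value, and their sum was 864.8, 798.7 and 1033 CPM in WT and 674.1, 600.8 and 622.2 CPM in ++Oxtr, and their part in the Pik3r6 value was not tested.

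Prkaca, the main catalytic subunit of protein kinase A, was on the higher side. It was at 140.3, 158.6 and 141.2 CPM in WT and 172.8, 178.6 and 177.1 CPM in ++Oxtr, with means of 146.7 ± 10.3 and 176.2 ± 2.98 CPM (SD, n = 3). The groups did not overlap. The log2 fold change was 0.26 (SE 0.08), or 1.2-fold higher, with an unadjusted edgeR p of 0.0143 (edgeR adjusted p = 0.451, DESeq2 adjusted p = 0.209). Without WT replicate 11 DESeq2 gave 0.32 at an adjusted p of 0.0311. Prkaca supplied 82.6% to 84.4% of the summed FPKM of both catalytic genes in WT and 85.4% to 87% in ++Oxtr. Prkacb differed by -0.02 and turned to the higher side with upper quartile factors.

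The adenylyl cyclases, which make cyclic AMP and which Gi inhibits, were led by Adcy5 and Adcy6 at 32.8 and 30.4 FPKM. Adcy5 was at 322.5, 266.3 and 250.8 CPM in WT and 293.3, 195.8 and 81.1 CPM in ++Oxtr replicates 7, 8 and 9. The ++Oxtr libraries thus spread from within the WT range to far below it. Its log2 fold change was -0.56 (SE 0.42, edgeR adjusted p = 0.727), and it was -0.19 (SE 0.20) without ++Oxtr replicate 9 and -1.02 without ++Oxtr replicate 7. In ++Oxtr replicate 9 Adcy5 held 18% of the summed FPKM of the class and Adcy6 45%, where WT had 39.5% to 43.8% and 31.3% to 34.8%. Adcy6 itself had means of 206.3 CPM in WT and 206.2 CPM in ++Oxtr (log2 fold change 0.00, SE 0.10). Adcy3 was at 21.4, 13.7 and 15.7 CPM in WT and 24.7, 19.5 and 30.1 CPM in ++Oxtr, with overlap, at 0.55 (SE 0.22) and an unadjusted p of 0.0373 (edgeR adjusted p = 0.517).

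Of the cyclic GMP genes, the receptor Npr2 was the most abundant at 23 FPKM and differed by 0.09 (SE 0.10). Gucy1a1, a subunit of the soluble guanylate cyclase that nitric oxide activates, differed by -0.29 (SE 0.18), and Nos3, endothelial nitric oxide synthase, by -0.14, both with overlap.

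Adcy8, Calml3 and Calml4, named after their values were seen, were highest in ++Oxtr replicate 8. Calml3, a calmodulin-like gene of epithelia, was at 31.9 CPM there and at 4.65 CPM or less elsewhere, with 0 reads in WT replicate 11 and ++Oxtr replicate 7. Adcy8 was at 20.4 CPM there, at 4 and 3.98 CPM in WT replicate 12 and ++Oxtr replicate 9, and at 0.277 CPM or less in the other 3. Calml4 was at 22.1 CPM there and at 5.05 to 9.63 CPM elsewhere. Without ++Oxtr replicate 8 the log2 fold changes went from 2.83 to -0.28 for Calml3, from 2.45 to 0.44 for Adcy8 and from 0.62 to -0.26 for Calml4. Beside them Foxj1, a regulator of motile cilia, was at 29.2 CPM in that library, 5.90 and 6.55 CPM in WT replicate 12 and ++Oxtr replicate 9, and at most 0.139 CPM in the others. The sum of 6 epithelial markers was 135.2 CPM in ++Oxtr replicate 8 and 20.5 to 51.3 CPM elsewhere. Their part in the values of these members was not tested.

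**Figure D4:**
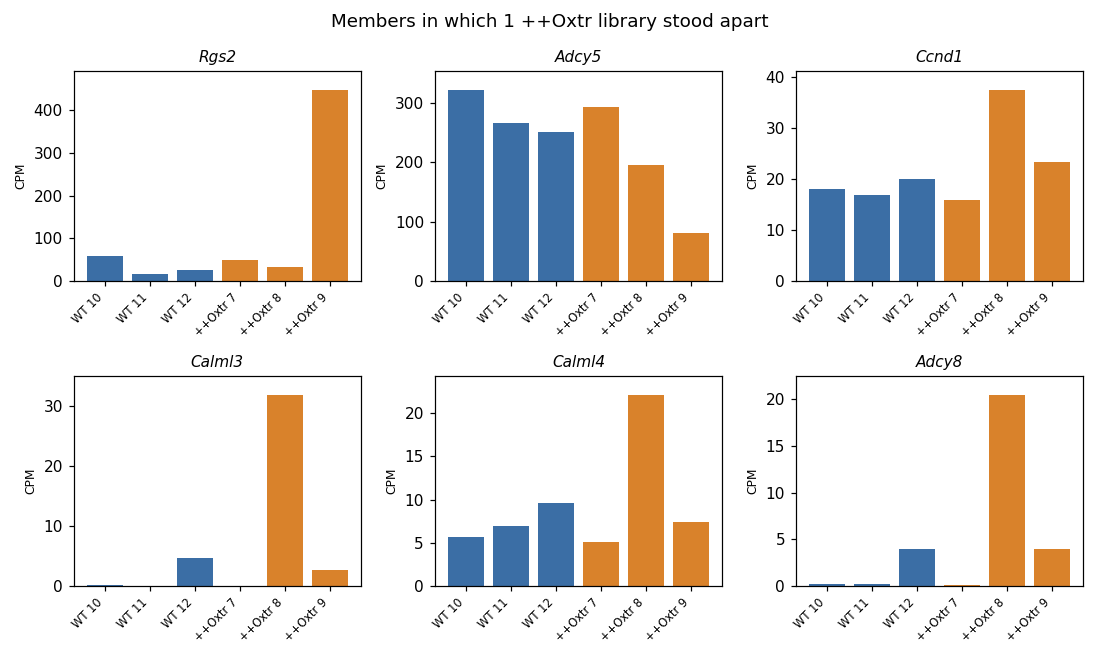
CPM of Rgs2, Adcy5, Ccnd1, Calml3, Calml4 and Adcy8 (vertical axis, from 0) in each of the 6 libraries, WT in blue and ++Oxtr in orange. Rgs2 is highest and Adcy5 lowest in ++Oxtr replicate 9, and the other 4 genes are highest in ++Oxtr replicate 8.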

How the data were processed

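RNA-seq of 6 mouse white adipose libraries was analysed from 1 deposited table. It holds counts per gene as deposited by the authors, and FPKM values that the authors computed from them, which recomputation from count, gene length and library total matched. Per the submitters' processing notes the genome build was mm10. The sources used here do not give the aligner, the counting program or its strand setting. Of the 113 tested members, 47 overlap another gene of GENCODE M21 that is protein coding, antisense or a long intergenic RNA. Other gene types were not counted, and not every overlap is named beside its result. Prkab2, Plcb3, Mapk7, Rhoa and Adcy3 are among them and overlap protein-coding genes. Only 4 of the 146 members have the table's start and end in GENCODE M21, while 141 have the same span. Which build the table's coordinates use is therefore not known, and positions printed are those of GENCODE M21 on GRCm38.

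Counts were tested in R 4.3.3 with edgeR 4.0.16 (filterByExpr, TMM factors, quasi-likelihood test on both groups, Benjamini-Hochberg adjustment over 13566 genes, threshold 0.05). Standard errors are of the log2 fold change. DESeq2 1.42.0, limma-voom and limma on log2(FPKM + 0.5) (limma 3.58.1), other scaling factors and filters, and leaving out each library were alternatives. The unadjusted threshold and DESeq2 without each library were added after seeing the data. The edgeR script was tested on simulated data.

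Named members are those with the highest FPKM or smallest p of each of 25 classes and the 10 smallest p without overlap of the groups; others were named after their values were seen. Members and lists were chosen with earlier results of these data known, and 4930544G11Rik, Nppa and Rgs2 were given a class after the table was seen. Of 146 members, 115 had a promoter in the RefSeq table. Single values of some members are not reported here.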

Additional observations from a re-analysis of the deposited data

How the results depend on the processing

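With edgeR, 0 members passed an adjusted p of 0.05 under every scaling, filter and left-out library run, while 3 higher and 7 lower passed an unadjusted p of 0.05 (603 higher and 606 lower of all genes). DESeq2 called 1 member lower, and 94 genes higher and 96 lower in all. With each library left out, DESeq2 called 1 to 2 members lower, and 1 higher without WT replicate 11. How many of all genes DESeq2 called in those fits was not counted. The calls of Cacna2d1, Prkaca and Camk2b rest on those fits alone, so they have no background share beside them. The log2 fold change changed sign for Calm2 with upper quartile factors (0.03), without WT replicate 12 (0.02) and without ++Oxtr replicate 9 (0.03, range -0.04 to 0.03), for Plcb4 without these same libraries (0.05 and 0.04, range -0.14 to 0.05), for Pla2g4a without WT replicate 12 (0.10, range -0.30 to 0.10), for Cacng7 (0.09, range -0.34 to 0.09) and Ppp3r1 (0.03, range -0.06 to 0.03) without WT replicate 11, and for Prkaa1 with limma on FPKM (-0.01) and without ++Oxtr replicate 7 (-0.04, range -0.04 to 0.15). Ranges are over the 6 fits that leave out a library, and the cause was not tested. No paired analysis was possible because no replicate number occurs in both genotypes. The 3 libraries in each group and low counts limit what could be detected for Ryr1, Kcnj14 and Cacnb4.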

Other observations

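Genes of the same classes that the table does not assign to the map gave values of their own. Gna11, the other widely expressed Gq-type alpha subunit, was at 114.5, 109.8 and 108.4 CPM in WT and 124.9, 114 and 119.7 CPM in ++Oxtr, with a log2 fold change of 0.11 (SE 0.08, edgeR adjusted p = 0.707). Its mean level was 28.1 FPKM, beside 19.5 FPKM for Gnaq. Myl12a, a regulatory light chain of nonmuscle myosin, was at 63.9, 50.6 and 48.4 CPM in WT and 52.8, 48.7 and 57.2 CPM in ++Oxtr (log2 fold change -0.04). Camkk1, a kinase that activates Camk1, was at 4.48, 4.58 and 4.52 CPM in WT and 3.67, 4.02 and 2.77 CPM in ++Oxtr. Its groups did not overlap, at -0.38 (SE 0.25, edgeR adjusted p = 0.68).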
